A study of Homo sapiens with 7 samples.

Results

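Coding-gene peaks listed in total RNA only are regions of N6-methyladenosine (m6A) capture in HEK-293T, an established line from human embryonic kidney, that were called in the total RNA library and in none of the polyA RNA libraries. The series mapped m6A with an antibody (MeRIP) and with a chemical method (m6A-ORL), to set the performance of the methods side by side. In m6A-ORL the fragments were treated with NO/O2, TDO and the biotinylated probe BA, pulled down on streptavidin and released by DTT. Of 7 samples, 4 are captured libraries with a peak list: m6A-ORL replicate 1 from total RNA, then m6A-ORL replicate 2 and MeRIP replicates 1 and 2 from polyA RNA. The 3 inputs were not analysed here. All 4 libraries came from HEK-293T cells, and the labels name no treatment or genetic change of the cells. The molecule field names total RNA for m6A-ORL replicate 1 and its input, whereas the protocol text common to the samples describes oligo(dT) selection. RNA type and replicate cannot be told apart within m6A-ORL, and with 1 total RNA library no test between RNA types was possible.

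A peak was taken as found in total RNA only when none of its blocks overlapped a peak of the other 3 lists by 1 nt or more on either strand. Its centre also had to lie in the span of a protein-coding RefSeq gene on the same strand. Peaks on the mitochondrial chromosome and peaks covered to 50% or more by a small RNA gene of at most 400 nt were left out. This left 2943 peaks in 2383 genes, out of 11022 peaks in the total RNA list and 59659 in the series. They made up 33.3% of the 8832 coding-gene peaks of that list, and the other 5889 were overlapped by another list. The same rule applied to the other libraries gave 3364 coding-gene peaks (47.4%) for polyA m6A-ORL, 2307 (13%) for MeRIP replicate 1 and 1978 (11.5%) for MeRIP replicate 2. The peaks were chosen by the deposited calls themselves, namely presence in 1 list and absence from 3, so these counts are a description and not a result. Of the 4577 total RNA peaks outside the mitochondrial chromosome that no other list overlapped, 802 had no coding gene at the centre, 321 lay opposite to one, 266 lay in a gene whose strand was not known and 245 were covered by a small RNA gene.

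In mammalian cells most internal m6A is written by the METTL3-METTL14 complex at a short consensus sequence, and it is known to be frequent in long internal exons and near stop codons. A related base, m6Am, is found next to the cap of many mRNAs whose first transcribed base is A. Total RNA also holds transcripts that oligo(dT) does not bind, among them the replication-dependent histone mRNAs, which mostly end in a stem-loop in place of a poly(A) tail.

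Many of these peaks lay over transcription starts. Of the 2943, 641 (21.8%, exact 95% interval 20.3 to 23.3) had their centre within 300 nt of the 5' end of the gene span, against 407 of the 5889 overlapped total RNA peaks (6.91%, 6.28 to 7.59). The interval, like all others here, covers counting error over peaks of 1 library only. Start windows from RefSeq (GRCh38.p14, the hg38 assembly; 250 bases before and 50 after each start) were given for 2140 of the 2383 genes. A stretch of at least 40 of the first 50 transcribed bases was covered by 496 of the peaks (16.9%), against 292 overlapped total RNA peaks (4.96%). The 5' edge of 191 of the 496 (38.5%, 34.2 to 42.9) lay within 10 nt of the RefSeq start itself. Such an edge was not more frequent than in the other sets, as it was found for 134 of the 292 overlapped total RNA peaks (45.9%, 40.1 to 51.8), 158 of 326 such peaks of polyA m6A-ORL (48.5%, 42.9 to 54), and 43.5% (40.4 to 46.6) and 45.6% (42.5 to 48.8) of those of MeRIP replicates 1 and 2. To show the edge base by base, sequences are given for the 4 replication-dependent histone genes that had one, taken as a class, and for the 8 best-scored other genes, 1 window per gene, with the last 60 bases before the start and the first 30 of the transcript. Capitals mark the bases inside the peak, so that the change of case shows where the listed region began. The replication-dependent histone genes come first.
H3C2 (chr6:26032070-26032159, minus strand): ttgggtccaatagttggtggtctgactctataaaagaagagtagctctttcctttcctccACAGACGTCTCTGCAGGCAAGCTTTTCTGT
H2AC7 (chr6:26199264-26199353, minus strand): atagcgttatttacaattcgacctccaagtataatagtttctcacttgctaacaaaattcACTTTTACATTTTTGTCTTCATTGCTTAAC
H4C16 (chr12:14771102-14771191, minus strand): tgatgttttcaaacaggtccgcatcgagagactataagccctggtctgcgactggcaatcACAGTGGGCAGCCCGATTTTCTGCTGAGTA
H4C14 (chr1:149832597-149832686, plus strand): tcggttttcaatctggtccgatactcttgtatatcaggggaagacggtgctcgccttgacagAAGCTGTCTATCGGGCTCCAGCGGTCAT
The remaining genes encode an alpha- and a beta-tubulin (TUBA1B, TUBB), a ribosomal protein (RPS4X), a glyoxalase (GLO1), a cytochrome c oxidase subunit (COXFA4), subunits of the proteasome core (PSMA4, PSMB3) and a mitochondrial protein (CHCHD2).
TUBA1B (chr12:49131366-49131455, minus strand): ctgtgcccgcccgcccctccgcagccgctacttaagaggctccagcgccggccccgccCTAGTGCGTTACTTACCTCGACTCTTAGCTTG
RPS4X (chrX:72277219-72277308, minus strand): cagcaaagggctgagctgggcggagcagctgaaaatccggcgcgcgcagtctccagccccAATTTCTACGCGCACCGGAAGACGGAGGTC
GLO1 (chr6:38703116-38703205, minus strand): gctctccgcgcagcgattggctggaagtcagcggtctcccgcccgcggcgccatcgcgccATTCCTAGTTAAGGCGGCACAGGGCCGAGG
COXFA4 (chr7:10940124-10940213, minus strand): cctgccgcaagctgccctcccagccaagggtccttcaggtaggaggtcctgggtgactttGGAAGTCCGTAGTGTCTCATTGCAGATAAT
TUBB (chr6:30720292-30720381, plus strand): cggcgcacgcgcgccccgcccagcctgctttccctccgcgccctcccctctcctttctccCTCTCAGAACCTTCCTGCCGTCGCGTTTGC
PSMA4 (chr15:78540345-78540434, plus strand): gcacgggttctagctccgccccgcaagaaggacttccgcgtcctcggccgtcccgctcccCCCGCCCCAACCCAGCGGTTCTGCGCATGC
PSMB3 (chr17:38752681-38752770, plus strand): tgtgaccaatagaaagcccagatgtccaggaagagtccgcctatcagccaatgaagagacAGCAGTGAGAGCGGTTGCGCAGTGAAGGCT
CHCHD2 (chr7:56106447-56106536, minus strand): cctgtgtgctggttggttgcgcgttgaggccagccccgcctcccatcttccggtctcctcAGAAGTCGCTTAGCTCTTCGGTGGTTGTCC

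The peaks of H3C2, H2AC7, H4C16, RPS4X, GLO1, COXFA4, TUBB, PSMA4, PSMB3 and CHCHD2 began exactly at a RefSeq start, that of TUBA1B 2 nt before it and that of H4C14 2 nt after it. These edges may follow the gene models used for calling, on which the sources used here give nothing. The first transcribed base was A in 306 of the 522 start windows covered by the total-RNA-only peaks (58.6%, 54.3 to 62.9) and in 182 of 303 covered by overlapped total RNA peaks (60.1%, 54.3 to 65.6). Both intervals lay above the 46.7% found over the 12101 windows of coding genes with a peak in any list, and above the 50.1% over all 22182 coding windows. The share was 46.4% (41 to 51.9) for all coding-gene peaks of polyA m6A-ORL, and 52.6% (49.5 to 55.6) and 51.9% (48.8 to 55) for those of the MeRIP replicates. The MeRIP intervals thus also lay above 46.7%, but they held 50.1%. Among the 198 windows covered from within 10 nt of the start the share was 59.6% (52.4 to 66.5). For windows so covered by overlapped total RNA peaks it was 54.4% (45.7 to 63), and for all polyA m6A-ORL peaks 47.5% (39.5 to 55.6). For the MeRIP replicates it was 55.2% (50.4 to 59.9) and 55.5% (50.7 to 60.1), and these intervals lay above 50.1%. The m6A consensus was searched on the transcribed strand as 18 sequences of 5 bases (A, G or T, then A or G, then AC, then A, C or T). At least 1 of them stood in the first 50 bases of 222 of the 522 windows (42.5%, 38.2 to 46.9), against 40.8% of the 12101. The core form GGACT was in 23 windows (4.41%), against 4.64%. Both backgrounds lay within the intervals, and a match is a description of the letters only.

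Along the gene span the peaks were concentrated at both ends. The first 10% of the span held 821 of the 2943 (27.9%, 26.3 to 29.6), against 12.8% (12 to 13.7) of the overlapped total RNA peaks, and the last 10% held 877 (29.8%, 28.2 to 31.5), against 38.1% (36.9 to 39.4). Within the final 1000 nt before the 3' end lay 381 (12.9%, 11.8 to 14.2), against 996 (16.9%, 16 to 17.9). In genes of at least 5000 nt, the 5' shares were 20.3% and 5.83%. The polyA m6A-ORL peaks that no other list overlapped had 10.3% (9.25 to 11.3) within 300 nt of the 5' end. No exon annotation was given, so position along the span cannot be told apart from where exons lie in it.

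**Figure D1:**
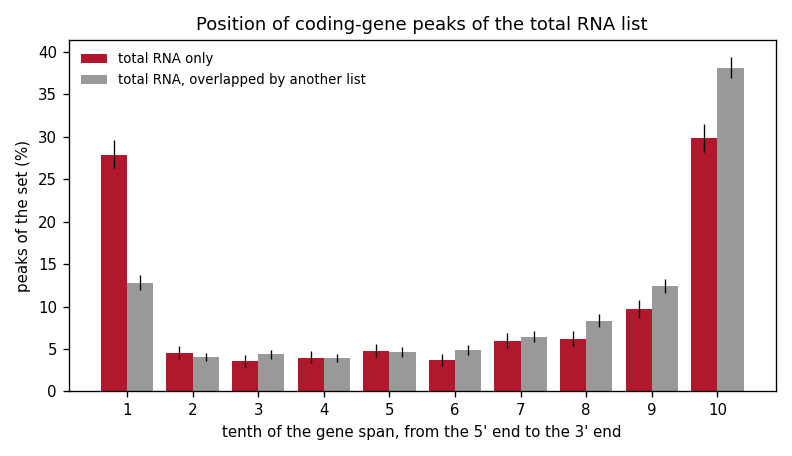
Share of peaks in each 10% step of the genomic gene span, in percent of the set, for the 2943 total-RNA-only peaks (red) and the 5889 total RNA peaks overlapped by another list (grey), with exact 95% intervals. The first step held 27.9% of the red set and 12.8% of the grey set, and the last step 29.8% and 38.1%.

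The peaks were narrower and more often split over a splice junction than the overlapped ones of the same library. The median width was 120 nt (quartiles 90 and 151), against 151 nt (119 and 239), and 96.3% of widths lay within 1 nt of a multiple of 30, so widths move in steps. Peaks of several blocks, the pieces on either side of a junction, numbered 565 (19.2%, 17.8 to 20.7), against 349 (5.93%, 5.34 to 6.56). PolyA m6A-ORL peaks without overlap had a higher share, 38.3% (36.6 to 39.9). A wide peak is more easily overlapped than a narrow one, so width bears on the rule and is given as a description. Of total RNA coding-gene peaks of at least 150 and under 200 nt, those in total RNA only were 177 of 278 with several blocks (63.7%, 57.7 to 69.3) and 489 of 1837 with 1 block (26.6%, 24.6 to 28.7). Blocks and starts went together, as 187 of the 565 peaks of several blocks lay within 300 nt of the 5' end (33.1%, 29.2 to 37.1), against 454 of the 2378 of 1 block (19.1%, 17.5 to 20.7). The overlapped total RNA peaks showed this as well, at 28.7% (24 to 33.7) against 5.54% (4.95 to 6.18). For polyA m6A-ORL peaks without overlap the order was reversed, at 6.76% (5.45 to 8.27) against 12.4% (11 to 13.9).

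**Figure D2:**
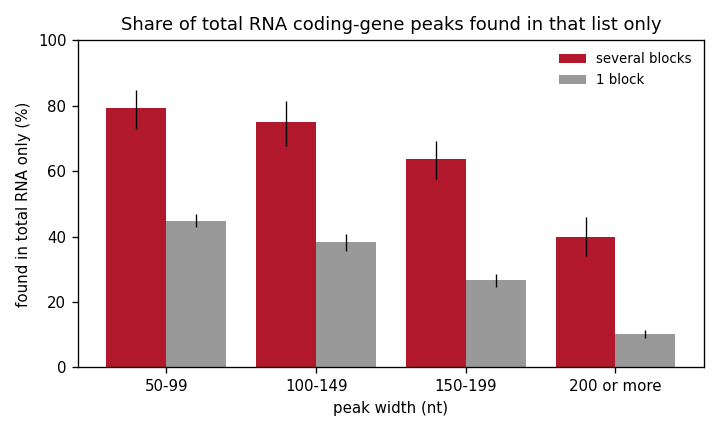
Share of the total RNA coding-gene peaks that were found in total RNA only, in percent with exact 95% intervals, by peak width in nt, for peaks of several blocks (red) and of 1 block (grey). The share falls with width in both, and the red bars lie above the grey at each width, from 79.3% and 44.9% under 100 nt to 39.9% and 10.3% at 200 nt or more.

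The peaks had weaker deposited scores than the overlapped ones. The score has the range of a p-value or a q-value, and its median was 0.00011 for total-RNA-only peaks, against 1.8e-05 for overlapped peaks. With the total RNA coding-gene peaks ranked by score and cut into 4 sets of 2208, the share found in total RNA only was, from the best set to the worst, 20.7%, 27.6%, 38.3% and 46.7%. Restricting the list to its better-scored 50% left 1023 such peaks, of which 31.1% lay within 300 nt of the 5' end and 26.1% had several blocks. By chromosome the share was lowest on chromosome 22 (24.1%, 19.1 to 29.8) and highest on chromosome 18 (40.8%, 32.1 to 49.9). Peaks near the border of the rule were MRPL43, a mitochondrial ribosomal protein gene, COX6A1 of cytochrome c oxidase and SARS2, the mitochondrial seryl-tRNA synthetase gene, which lay 2, 7 and 12 nt from a peak of another list. On the other side, the total RNA peaks of ATP5F1B (ATP synthase beta subunit), MARCKS and H2AX were left out for an overlap of 1 nt each, and 173 total RNA peaks were left out for an overlap under 10 nt. These 3 overlapped peaks were picked as the best-scored with an overlap of 1 nt (2e-50, 1.6e-41 and 7.9e-28). MRPL43, COX6A1 and SARS2 were picked by distance alone (2.2e-05, 7.8e-06 and 3.7e-05), so the scores of the 2 sides cannot be compared.

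Of the 10 best-scored peaks, 4 lay in histone, tubulin or ribosomal protein genes and 3 were partly covered by a small RNA gene. H3C2, a histone H3 gene (chr6:26031921-26032099, minus strand, 179 nt), and a region within FLVCR2, a transporter gene, were listed with a score of 0. They were followed by GNPTAB, which encodes a subunit of the mannose 6-phosphate tagging enzyme (1e-240), TEX101, a germ cell surface protein gene (1e-203), and TUBA1B (1e-168). Next came RPL13A (7.9e-100), the histone H4 gene H4C5 (3.2e-99), MFSD11 (2.5e-83), CTC1, a gene of the telomere-binding CST complex (4e-80), and ANKRD30BL (5e-78). The small RNA genes covered 48.1% of the GNPTAB peak (RNA5SP368, a 5S ribosomal RNA copy), 38.9% of that of RPL13A (SNORD32A) and 38.9% of that of CTC1 (the tRNA gene TRS-AGA2-6). Of all 2943, 19 were partly covered in this way, and the part of small RNA reads in these peaks was not tested. FLVCR2 had no peak in the other lists, and its 2 overlapping listings carried different deposited IDs (ENSG00000201096.1 and ENSG00000280494.2), so the region may not belong to its mRNA. The 2 peaks of ANKRD30BL carried different IDs as well (ENSG00000202174.1 for the better-scored one). In all, 104 of the 2943 peaks carried an ID other than the most common one among the peaks in the gene. IDs were not matched to genes, so the most common ID need not be the gene's own. Peaks under either kind of ID may therefore not belong to its mRNA. For 2626 peaks the gene had a single ID, which was not checked either. Among the genes named here, the less common ID was that of the only total-RNA-only peak of NUMA1 (ENSG00000207012.2), RCC1 (ENSG00000242125.3) and ZNF609 (ENSG00000207223.1). Some or all of those of EIF4A1, CHD4, IRS4, NDUFA7, UQCR11, CHCHD3 and SRCAP carried such an ID too.

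TUBA1B had 2 total RNA peaks, of which 1 was found there only, against 2 in polyA m6A-ORL and 1 in each MeRIP list. Its total-RNA-only peak covered the start, and the nearest peak of another list was 1369 nt away. H3C2, FLVCR2, TEX101, H4C5 and ANKRD30BL were the best-scored among genes with no coding-gene peak in the other lists. Such genes numbered 636 of 2383 (26.7%, 24.9 to 28.5) and held 743 of the peaks, a share that the rule itself partly sets. Of these 743, 32.7% (29.3 to 36.2) lay within 300 nt of the 5' end and 27.9% (24.7 to 31.2) had several blocks, against 18.1% (16.5 to 19.8) and 16.3% (14.8 to 17.9) of the 2200 peaks in genes that another list also marked. Of the best-scored spliced peaks, TEX101 had 2 blocks over 296 nt, RPS4X 3 blocks over 150 nt and DDX17, an RNA helicase gene, 2 blocks over 240 nt.

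Most of the genes were marked by another list at another position. Of the 2383 genes, 1747 (73.3%, 71.5 to 75.1) had a coding-gene peak elsewhere in at least 1 other list, among them 762 with peaks in both MeRIP lists and none in polyA m6A-ORL, and 613 with peaks in all 3 lists. A further 205 had one in polyA m6A-ORL without MeRIP. For 895 genes (37.6%) the total RNA list itself held another peak that was overlapped. By list, 36.6% of the genes had a peak in polyA m6A-ORL, 62.3% in MeRIP replicate 1 and 60.1% in MeRIP replicate 2, against 19.5%, 38.4% and 37.6% of all 20052 coding genes. The 73.3% and these shares by list are partly set by the strand rule. Where start windows gave no strand, it was taken from peaks of the other lists. Of the total-RNA-only peaks, 309 lay in such genes. In turn, 266 total RNA peaks that no other list overlapped were left out because the strand of their gene was not known. Over all coding genes 25.4% had a total RNA peak, 11.9% one found in total RNA only and 18% one overlapped by another list. The nearest peak of any other list was within 100 nt for 310 peaks (10.5%), within 500 nt for 867 (29.5%) and within 5000 nt for 1601 (54.4%), with a median distance of 3349 nt.

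**Figure D3:**
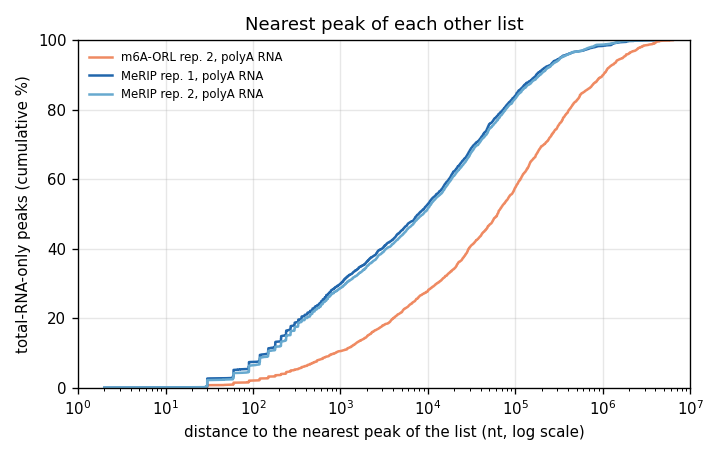
Cumulative share of the 2943 total-RNA-only peaks, in percent, by distance in nt (log scale) to the nearest peak of polyA m6A-ORL (orange), MeRIP replicate 1 (dark blue) and MeRIP replicate 2 (light blue). Within 1000 nt lay a peak of these lists for 10.5%, 29.9% and 28.7%, and the lists differ in length, at 7661, 20760 and 20216 peaks.

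A single such peak was found in 1949 genes, while 348 had 2 and 86 had 3 or more. COL1A1, the gene of the type I collagen alpha-1 chain, had most, with 8 total RNA peaks, all found there only, against 1 in polyA m6A-ORL, 0 in MeRIP replicate 1 and 1 in MeRIP replicate 2. Of its 8, 7 had several blocks, and they ran from 1.1% to 89.5% of the span. The scores of the COL1A1 peaks lay between 1.3e-07 and 0.00055, and none was closer than 458 nt to a peak of another list. ZDBF2, an imprinted zinc finger gene, showed another layout and had 8 total RNA peaks, 7 of them found there only, against 0 in polyA m6A-ORL, 1 in MeRIP replicate 1 and 0 in MeRIP replicate 2. These 7 had 1 block each and lay within 5212 nt, between 79.1% and 92% of the span.

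In ALMS1, VCAN, ZNF292 and DDX17 a peak of another list lay within 2245 nt of each such peak. Both MeRIP lists marked these genes. ALMS1, a centrosome and basal body gene, had 9 total RNA peaks, 6 of them found there only, against 1, 7 and 4 in polyA m6A-ORL and the MeRIP replicates, and a MeRIP or polyA peak came within 120 to 1049 nt of each of the 6. VCAN, the gene of the matrix proteoglycan versican, had 9 total RNA peaks, 5 of them found there only, against 1, 8 and 9. ZNF292, a zinc finger gene, had 7 total RNA peaks with 5 found there only, against 1, 5 and 4. DDX17 had 9 with 5, against 1, 3 and 3, and its 5 lay between the start (0.101% of the span) and the very end (99.5%). The 4 listings in NDUFA7, a complex I subunit gene, joined to 2 separate regions, and the 4 in IRS4, an insulin receptor substrate gene, to 3, because overlapping listings under several IDs were counted one by one. NDUFA7 had no MeRIP peak. IRS4 had 9 total RNA peaks, against 7, 2 and 2, and its 4 lay 10081 to 11097 nt from the nearest peak of another list. Joining all overlapping listings left 2861 regions. Of the 86 genes with 3 or more, 33 had all of them with 1 block and within 6000 nt of each other, as in ZDBF2.

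**Figure D4:**
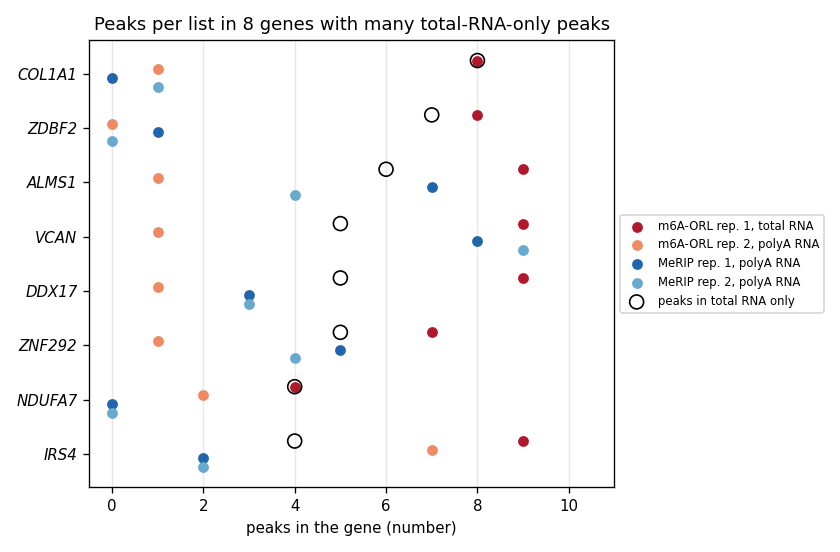
Number of peaks per gene in the total RNA list (red), polyA m6A-ORL (orange) and MeRIP replicates 1 (dark blue) and 2 (light blue) for 8 of the genes with most total-RNA-only peaks, whose number is shown by an open circle. COL1A1 has 8 total RNA peaks against 1, 0 and 1, and ZDBF2 8 against 0, 1 and 0, while VCAN has 9 against 1, 8 and 9.

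The widest of the peaks lay in ALG2, a mannosyltransferase gene of N-glycan synthesis (720 nt), ZBTB33, which encodes the repressor Kaiso (539 nt), CHCHD3, a gene of the mitochondrial MICOS complex (538 and 508 nt), and SLC16A10, an aromatic amino acid transporter gene (451 nt). ALG2 and ZBTB33 also had MeRIP peaks, and the nearest peak of another list was 120 and 29 nt away, whereas CHCHD3 had none in any other list. Both of these CHCHD3 peaks carried the ID ENSG00000283041.1 and its remaining peak ENSG00000106554.13, and which of them belong to CHCHD3 was not checked. In the genes with most total RNA peaks of both kinds, few were found there only. SPEN, a transcriptional repressor gene, had 2 of 16, SRCAP, a chromatin remodeller gene, 2 of 14, and FAT1, an atypical cadherin gene, 1 of 13.

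Replication-dependent histone genes had almost all of their total RNA peaks to that library alone. Of 69 such genes, 20 (29%, 18.7 to 41.2) had a total-RNA-only peak, against 11.9% of all coding genes. These were 22 of the list's 23 total RNA peaks (95.7%), against 33.3% of all. In H2AC17 and in H2AC7 the 2 listings carried different IDs and 1 lay inside the other, so the 22 mark fewer separate regions. A peak was listed for 21 of the 69 genes in total RNA, against 9 in polyA m6A-ORL, 0 in MeRIP replicate 1 and 1 in MeRIP replicate 2, and 18 of the 20 genes had no peak in another list. The best-scored were H3C2, H4C5, the H2A gene H2AC17 (3.2e-58), the linker histone gene H1-2 (3.2e-57), the H3 gene H3C7 (1.6e-46) and the H2B gene H2BC12 (6.3e-36). Each of these had no peak in the 3 polyA lists. Of the 22 peaks, 17 lay within 300 nt of the 5' end, but 20 lay within 1000 nt of the 3' end too, since most of the genes are short (H3C2 spans 511 nt and H4C5 412 nt). Histone genes of a class are near-identical copies, and reads can be shared between them, so the gene named for a peak is uncertain. Of the 11 replication-independent variants, whose mRNAs are polyadenylated, 1 had such a peak (9.09%, 0.23 to 41.3). This interval holds both the 29% of the replication-dependent genes and the 11.9% of all coding genes. The variant gene was H2AZ1, with 2 total RNA peaks against none in the other lists.

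Cytosolic ribosomal protein, proteasome and respiratory chain genes also had most of their total RNA peaks outside the other lists. For cytosolic ribosomal proteins these were 41 of 52 peaks (78.8%) in 32 of 86 genes (37.2%, 27 to 48.3). Over all coding genes the share was 33.3% of the total RNA peaks and 11.9% of the genes. The polyA m6A-ORL list marked more of these genes (49) than the total RNA list (41), and the MeRIP lists marked 15 and 14. The best-scored after RPL13A were RPS4X (1 total RNA peak against 3, 0 and 0 in polyA m6A-ORL and the MeRIP replicates), RPL28 (3 against 1, 3 and 3), RPS15 (1 against 3, 0 and 0), RPL8 (1 against 2, 0 and 0) and RPL6 (1 against 2, 0 and 0). RPL13A had 4 total RNA peaks, 3 of them found there only, against 2, 1 and 3. Many of these genes have processed pseudogene copies, so reads may be divided among near-identical positions. Proteasome subunits had 19 of 25 peaks (76%) in 16 of 43 genes (37.2%, 23 to 53.3), led by PSMA4, PSMB3, PSMA1 and PSMA3, none of which had a peak in another list. PSMB4 had 1 total RNA peak against 1, 0 and 0, and PSMB2 had 1 against none.

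Among nuclear-encoded subunits of the respiratory chain, ATP synthase included, 36 of 58 total RNA peaks (62.1%) in 26 of 84 genes (31%, 21.3 to 42) were found in total RNA only. Over all coding genes these shares were 33.3% of peaks and 11.9% of genes. Of these 36, 19 had several blocks and 21 lay within 300 nt of the 5' end. Among the listed genes UQCRC2, of a core protein of complex III, led (2.5e-27). It had 1 total RNA peak and none in the other lists, as had COX7C and COX7B of cytochrome c oxidase and ATP5F1A, the ATP synthase alpha subunit gene. The list and its counts left out COXFA4, which had 2 total RNA peaks (best score 3.2e-46), both found there only, and none in the other lists. NDUFA7 had 4 total RNA peaks against 2, 0 and 0, and UQCR11 had 3, with 2 found there only, against 0, 2 and 2. Mitochondrial ribosomal proteins had 22 of 54 (40.7%, against 33.3% of all) in 19 of 77 genes (24.7%, 15.6 to 35.8, against 11.9%). Among these genes were MRPL55, MRPL3, MRPL17, MRPL9, MRPS23 and MRPL19. MRPL3, MRPL9, MRPS23 and MRPL19 had no peak in another list, whereas MRPL55 had 1 and MRPL17 2 in each MeRIP list. Coding genes that host small nucleolar RNAs in their introns had 22 of 51 (43.1%, against 33.3% of all) in 14 of 46 genes (30.4%, 17.7 to 45.8, against 11.9%). Among these hosts were RPL13A, RCC1, NOP56, EIF4A1, MRPL3 and CWF19L1.

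Chromatin regulators and m6A machinery genes had most of their total RNA peaks in common with another list. Histone methyltransferases and remodellers had them in 17 of 38 genes (44.7%, 28.6 to 61.7), yet as 27 of 143 peaks (18.9%), against 11.9% of all coding genes and 33.3% of all coding-gene peaks of the library. The share of genes moved with the rule, to 15.8% where no peak of another list was allowed within 500 nt (8.76% of all coding genes) and to 18.4% in the better-scored 50% of the list (4.53% of all). KMT2A had 6 total RNA peaks, 1 of them found there only, against 1, 13 and 11 in polyA m6A-ORL and the MeRIP replicates. CHD4 had 5 with 4 found there only (2 of them under another ID), against 2, 0 and 2, and KMT2C 9 with 2, against 1, 12 and 13. BPTF, ARID2 and SETD2 had 1, 1 and 2. SR proteins and hnRNPs, the RNA-binding regulators of splicing, had 15 of 42 (35.7%) in 12 of 34 genes (35.3%, 19.7 to 53.5). Among them HNRNPC had 1 peak in each list with the total RNA peak at the start, HNRNPH1 had 2 total RNA peaks with 1 found there only, against 3, 0 and 0, and SRSF7 had 1 against none. TRA2A, SRSF4 and SRSF8 had 1, 1 and 3 found there only. The m6A machinery had 4 of 33 (12.1%) in 4 of 24 genes (16.7%, 4.74 to 37.4), which were the reader YTHDF3, the writer complex genes ZC3H13 and CBLL1, and the demethylase FTO. YTHDF3 had 3 total RNA peaks with 1 found there only, against 0, 2 and 2.

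The next groups had 26.7% to 45.2% of their peaks in total RNA only, against 33.3% of all coding-gene peaks of the library, in 16.3% to 35.1% of their genes, against 11.9% of all coding genes. ZNF zinc finger genes had 112 of 420 (26.7%) in 83 of 509 genes (16.3%, 13.2 to 19.8), and only 6 of the 112 had several blocks. ZNF644, ZNF609, ZNF664, ZNF704 and ZNF217 had total RNA peaks of both kinds and MeRIP peaks, while ZNF124 had 2 total RNA peaks and none in another list. In double-strand break repair the count was 14 of 31 (45.2%) in 9 of 27 genes (33.3%, 16.5 to 54). BRCA1 had 4 total RNA peaks, all found there only, against 1, 1 and 2 in polyA m6A-ORL and the MeRIP replicates, and the checkpoint kinase gene ATR had 1 against none. XRCC6, FANCM, PRKDC and BRCA2 had 1, 2, 1 and 2 found there only. Aminoacyl-tRNA synthetases had 15 of 43 (34.9%) in 13 of 37 genes (35.1%, 20.2 to 52.5), led by MARS1, IARS1, YARS2, TARS1, SARS2 and EPRS1. Nuclear pore proteins had 12 of 34 (35.3%) in 11 of 33 genes (33.3%, 18 to 51.8), led by AAAS, NUP133, NUP62CL, NUP205, RANBP2 and NUP160. In both of these groups the share of peaks was near that of all coding-gene peaks. Centrosome and spindle proteins had 23 of 56 (41.1%) in 20 of 68 genes (29.4%, 19 to 41.7), led by NUMA1 (under another ID), SPAG5, ASPM, CENPE, CEP83 and CENPF.

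In 3 further groups the share of peaks, at 28.6% to 30.8%, was near the 33.3% of all coding-gene peaks. Kinesins and dyneins had 8 of 28 peaks (28.6%) in 8 of 52 genes (15.4%, 6.88 to 28.1), among them the spindle motor gene KIF11, then KIF24, KIF5B, DYNC1H1, DYNLL1 and KIF1B. Solute carriers had 44 of 143 peaks (30.8%) in 41 of 385 genes (10.6%, 7.75 to 14.2), among them SLC38A1, SLC25A3, SLC8B1, SLC16A10, SLC25A5 and SLC12A2. Wnt, Notch and Hippo genes had 12 of 41 peaks (29.3%) in 9 of 39 genes (23.1%, 11.1 to 39.3), led by CTNNB1, STK4, NOTCH2, HES1, LATS1 and NOTCH3. Of 10 HEK-293T markers, GATA3 alone had one, with 1 total RNA peak against 2, 2 and 1, while 2 of the 10 had a peak in total RNA, against 5 in polyA m6A-ORL, 6 in MeRIP replicate 1 and 7 in MeRIP replicate 2. None of 14 markers of liver, blood, muscle, skin, endothelial and fibroblast cells had a coding-gene peak in any of the 4 lists. A peak needs RNA to be captured, and RNA levels were not measured here, so the part of expression in these shares was not tested.

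**Figure D5:**
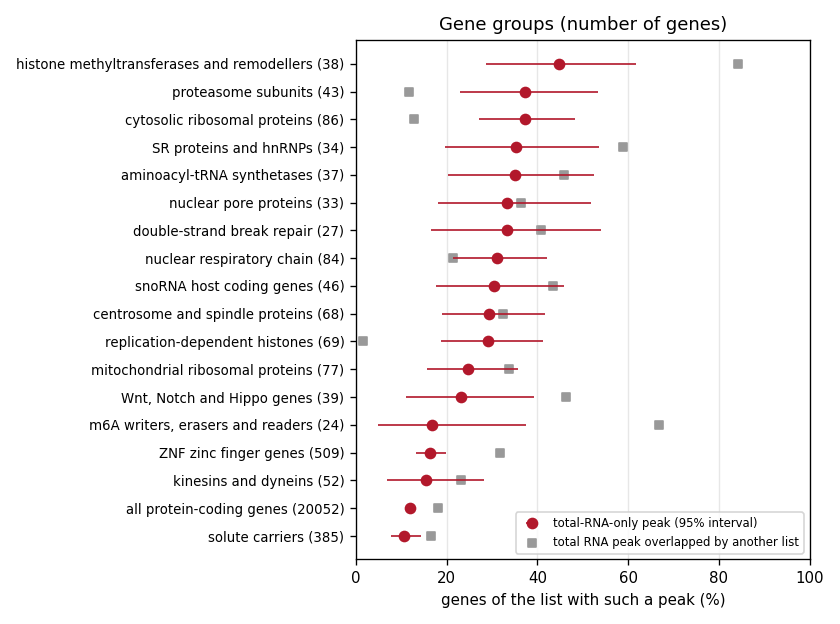
Share of the genes of each group, in percent, with a total-RNA-only peak (red, with exact 95% interval) and with a total RNA peak overlapped by another list (grey squares), with the number of genes in parentheses. For replication-dependent histones the values are 29% and 1.45%, for proteasome subunits 37.2% and 11.6%, for histone methyltransferases and remodellers 44.7% and 84.2%, and for all protein-coding genes 11.9% and 18%.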

How the data were processed

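Peak lists of the 4 captured libraries were read as deposited, 12 BED columns on hg38 with blocks, strand, an Ensembl ID and a score, per the file headers and values. The deposited score was read from its range as a p-value or a q-value, without knowing which. Not given in the sources used here are the input library, the threshold and the caller behind the authors' peaks. Per the submitters' processing notes, Trim Galore, STAR, HOMER and hg38 took part, with no role or version. Precision is set by the number of peaks, as the depth in reads is unknown.

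Exact duplicate lines (2, 1, 4 and 3 for m6A-ORL replicates 1 and 2 and MeRIP replicates 1 and 2) were removed. Genes came from RefSeq spans (GRCh38.p14), the smallest span at the centre being used. The strand of 15842 of 20052 coding genes came from the RefSeq start windows and of 1396 from peaks of the other 3 lists, which gave the same strand for 6348 of 6368 genes with both (99.7%). Small RNA genes included copies annotated as pseudogenes. Deposited Ensembl IDs were not matched to genes. Shares have exact (Clopper-Pearson) 95% intervals (scipy 1.17.1, pandas 2.3.3). Overlap calling was tested on 400 simulated peaks and recovered all 400.

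The peaks, the 20 gene lists and the rules were chosen with earlier results of these data known. Named are the 10 best-scored peaks, the 10 genes with most (2 of which are not reported here), the 5 widest, up to 6 genes per list, 3 on each side of the border, 5 best-scored in genes not marked otherwise, 3 genes with most total RNA peaks and 3 best-scored spliced peaks. The printed starts were chosen after the values were seen. Alternatives changed the overlap rule, the score range, the small RNA filter, the gene rule and the libraries.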

Additional observations from a re-analysis of the deposited data

How the results depend on the processing

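Of 107 recomputed values 84 stayed within their interval or within 1.5 times the count, and 23 moved; of 270 values for gene lists 14 moved, and are given after the others. Main values were 2943 peaks, 2383 genes, 25.2% in genes with no peak of the other lists, a median width of 120 nt, 19.2% with several blocks, 21.8% within 300 nt of the 5' end and 12.9% in the last 1000 nt. The better-scored 50% gave 1023 peaks, 908 genes, 31.2%, 151 nt, 26.1% and 31.1% in that order, and only the counts are smaller by construction. Requiring 50% of the peak to be overlapped gave 21.1% in genes with no other peak, 121 nt and 20.2% at the 5' end. Requiring no peak within 500 nt gave 34.5% in genes with no other peak, 22% with several blocks, 25% at the 5' end and 11.8% in the last 1000 nt. Without the small RNA filter 17.8% had several blocks and 20.2% lay at the 5' end. The 5' share was 18% in a window of 100 nt and 26.4% in 1000 nt. Leaving out 1 of the other libraries gave 3110 to 3292 peaks in 2496 to 2591 genes, 26.3% to 34.9% in genes with no other peak, 120 nt, 18% to 19.8% with several blocks, 20.8% to 23.7% at the 5' end and 12.8% to 13.4% in the last 1000 nt. Of alternatives chosen after seeing the data, taking strands from the start windows alone gave 28.2% in genes with no other peak, and either strand of the gene gave 29.3% and 14.3% in the last 1000 nt. The share of genes of a list with such a peak moved as follows, beside that of all coding genes. In the better-scored 50% (4.53% of all genes, 11.9% in the main setting) it was 26.7% for cytosolic and 14.3% for mitochondrial ribosomal proteins, 4.32% for ZNF genes, 18.4% for histone methyltransferases and remodellers, 15.2% for nuclear pore, 3.85% for kinesins and dyneins, 8.82% for centrosome, 10.8% for aminoacyl-tRNA synthetases, 7.69% for Wnt, Notch and Hippo and 3.9% for solute carriers. With no peak within 500 nt (8.76% of all) it was 25.6% for cytosolic ribosomal proteins, 10.8% for ZNF genes and 15.8% for histone methyltransferases and remodellers, and requiring 50% overlap (13.7%) gave 20.2% for ZNF genes. Within their intervals but by over 1.5 times, SR proteins and hnRNPs went to 20.6% (no peak within 500 nt) and 23.5% (better-scored 50%), the m6A machinery to 8.33% (no peak within 500 nt) and 29.2% (50% overlap), snoRNA hosts to 19.6% (better-scored 50%), and histone variants to 18.2% (50% overlap) and 27.3% (without polyA m6A-ORL). The cause of the moves in shares and widths was not tested. Shares in introns and of the m6A consensus over whole peaks were not run, for want of an exon annotation and a genome here. No paired analysis was possible because the results come from no test and total RNA is 1 library.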
